A study of Mus musculus with 7 samples.

Results

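The genes described here are the readers and erasers of N6-methyladenosine (m6A): the YTH domain readers Ythdf1, Ythdf2, Ythdf3, Ythdc1 and Ythdc2, the Igf2bp readers Igf2bp2 and Igf2bp3, the RNA-binding protein gene Elavl1, and the demethylases Fto and Alkbh5. They were chosen by symbol, with earlier results of these data known, and all 10 were found among the 23038 genes of the deposited table. RNA had been profiled with Smart-seq2, which amplifies full-length cDNA of few cells, from haematopoietic stem cells (HSCs; lineage-negative, Sca1+, cKit+, CD150+, CD48-) sorted from hindlimb marrow of adult C57BL/6 mice, with 150 cells in each library. The control group had 3 libraries from Cre-negative littermates, with a Mettl3 allele not given in the sources used here. The mutant group had 4 libraries from Mx1-cre; Mettl3fl/fl mice. Animals of both groups had been given pIpC, an analogue of double-stranded RNA, as 5 injections of 10 µg, and were examined 10 days after the last one. The Mx1 promoter answers to interferon in many cell types, so deletion is not limited to HSCs.

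m6A is placed on mRNA by a complex around the catalytic subunit Mettl3, bound by reader proteins and removed by the demethylases Fto and Alkbh5. YTHDF readers act in the cytoplasm, where Ythdf2 brings transcripts to the deadenylase complex CCR4-NOT. Ythdc1 is the nuclear YTH reader, and Ythdc2 is an RNA helicase known mainly from the germline. Igf2bp proteins and Elavl1 (HuR) stabilise transcripts that they bind. In HSCs, Ythdf2 is known as a brake on stem cell expansion and Igf2bp2 as part of the Lin28b and let-7 axis.

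The 3 YTHDF readers have related coding sequences, and their lines below show the same stretch of the part that encodes the YTH domain, which binds m6A. The capitals mark GGACT, the most common form of the motif that the Mettl3 complex methylates. The stretch was chosen around the last GGACT of Ythdf2, and its best match was taken in Ythdf1 and Ythdf3. The sequences are from GENCODE M21 transcripts (GRCm38, the assembly of mm10), 5′ to 3′, from coding base 1417 to 1482 in Ythdf1, 1399 to 1464 in Ythdf2 and 1450 to 1515 in Ythdf3, counted from the start codon.
Ythdf1: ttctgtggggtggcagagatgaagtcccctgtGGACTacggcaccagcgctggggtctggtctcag
Ythdf2: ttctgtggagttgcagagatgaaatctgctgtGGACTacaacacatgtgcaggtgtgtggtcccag
Ythdf3: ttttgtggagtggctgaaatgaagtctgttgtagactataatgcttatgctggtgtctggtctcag

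Of the 66 bases, Ythdf1 shared 52 with Ythdf2 and Ythdf3 shared 51. By the choice of stretch, GGACT was present in Ythdf2. At the same place Ythdf1 also had GGACT, and the Ythdf3 stretch had agact. Other forms of the motif were not searched, so a stretch without GGACT is not shown to lack the motif. Over whole coding sequences, GGACT on the sense strand occurred once in Ythdf1, Ythdf3, Igf2bp3 and Fto, 2 times in Ythdf2 and Alkbh5, 3 times in Ythdc2 and Igf2bp2, and 0 times in Ythdc1 and Elavl1. Of 18413 coding genes with at least 600 coding bases, 21.9% had none, and the median was 1.06 per kb. Igf2bp2, at 1.69 per kb, and Alkbh5, at 1.68 per kb, were above that median, and Ythdf2, at 1.15 per kb, was near it. Below the median were Ythdc2 (0.69 per kb), Fto (0.66), Igf2bp3 (0.57), Ythdf1 (0.57) and Ythdf3 (0.56), and also Ythdc1 and Elavl1, which had none. The presence of the motif is a description of the sequence, and methylation was not measured here.

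The longest run of bases common to 2 coding sequences was 22 between Ythdf1 and Ythdf2, and 17 between Ythdf3 and each of the others. It was 17 between Igf2bp2 and Igf2bp3. No window of 100 bases, the length of 1 read, was common to any pair of the 10 genes, so full-length matches of reads to their transcripts tell the members apart. Of 4030 such windows in the Ythdf2 transcript, 58 (1.44%) also occur in processed pseudogenes. In Ythdc1, 536 of 3170 windows (16.9%) also belong to a lincRNA of the same strand. Strand cannot separate the reads of that part of Ythdc1, and the level of the lincRNA was not looked up. In Elavl1, 82 of 5644 windows (1.45%) lie on the opposite strand of another gene's transcripts, and in Fto 50 of 4608 (1.09%). Igf2bp3 shared the largest part: 1430 of its 4246 windows (33.7%) lie on the opposite strand of Malsu1 transcripts. Malsu1, a mitochondrial ribosome assembly gene listed as 2410003K15Rik, was at 85.7 RPKM in control HSCs and at 96.2 RPKM in mutant HSCs. The use of strand in counting was not given in the sources used here, so reads of Igf2bp3 and Malsu1 in that stretch cannot be told apart.

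Each gene has 1 value per group in RPKM (reads scaled to gene length and to library size), so levels of different genes can be set side by side. With no value per library there is no SD, no test and no replicate check of any difference. Of the 23038 genes, reads were seen for 14539, and all 10 members were among them. The depth was read from the value that genes without reads carry, which for 1 kb of gene is 0.0414 RPKM in the control column and 0.0349 RPKM in the mutant column. If that offset stands for 1 read in each library, and the gene length is that of the longest protein-coding GENCODE transcript, reads per library can be estimated. Intervals for ratios were computed from these estimated reads by the exact (Clopper-Pearson) method at 95%. They cover counting error only, and PCR copies of 1 molecule count as separate reads in them.

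Mettl3 itself was at 49.8 RPKM in control HSCs and at 9.60 RPKM in mutant HSCs. Of the 10 genes that mark the HSC gate and identity, all had reads in both groups, among them Kit (67.4 and 39.9 RPKM), Ly6a, which encodes Sca1 (152 and 167 RPKM), and Slamf1, which encodes CD150 (25.9 and 27.1 RPKM). Their median log2 ratio was -0.19. Of 8 listed markers that the gate leaves out, 4 were at the offset in both groups, and of those with reads 2 were higher and 2 lower. The summed level was 6.59 and 5.85 RPKM, mostly Cd48 (5.33 and 4.04 RPKM), which encodes the CD48 that the gate excludes. Itgam, a myeloid marker, was at 0.727 and 1.65 RPKM. Of 11 markers of megakaryocytes, macrophages, red cells and endothelium, 3 were at the offset in both groups (Adgre1, Csf1r and Hba-a1), 7 of the other 8 were higher in mutants, and the summed level was 133 and 151 RPKM, mostly Pf4 (119 and 127 RPKM). The farthest apart of these were the globin gene Hbb-b1, at 2.30 and 7.79 RPKM (log2 ratio 1.41), and the macrophage gene C1qa, at 0.212 and 1.38 RPKM (log2 ratio 0.97). The part of these differences in the member values was not tested, and a change in the makeup of the sorted cells cannot be told apart from a change in RNA per cell.

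Of the 10 members, 9 were higher and 1 was lower in the mutant value, whereas 52.6% of all genes with reads were higher. Among the 9 were Fto and Alkbh5, whose ratios of 1.02 and 1.03 differed little from 1. The median ratio of genes with at least 1 RPKM in both groups was 1.02. On the scale log2((mutant + 1) / (control + 1)), which understates differences of low genes, the members' median was 0.54 and that of all genes with reads 0.02. At a size of at least 2-fold on this scale stood 1 member, Ythdf2, beside 7.14% of genes with reads in either direction and 3.67% in the higher direction. At least 1.5-fold apart were 6 members, 5 higher and 1 lower, beside 23.4% of genes with reads in either direction, 13.0% higher and 10.4% lower. Of 6607 genes that reached 10 RPKM in 1 of the groups, 21.8% were 1.5-fold apart. These are rules of size and not tests.

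**Figure D1:**
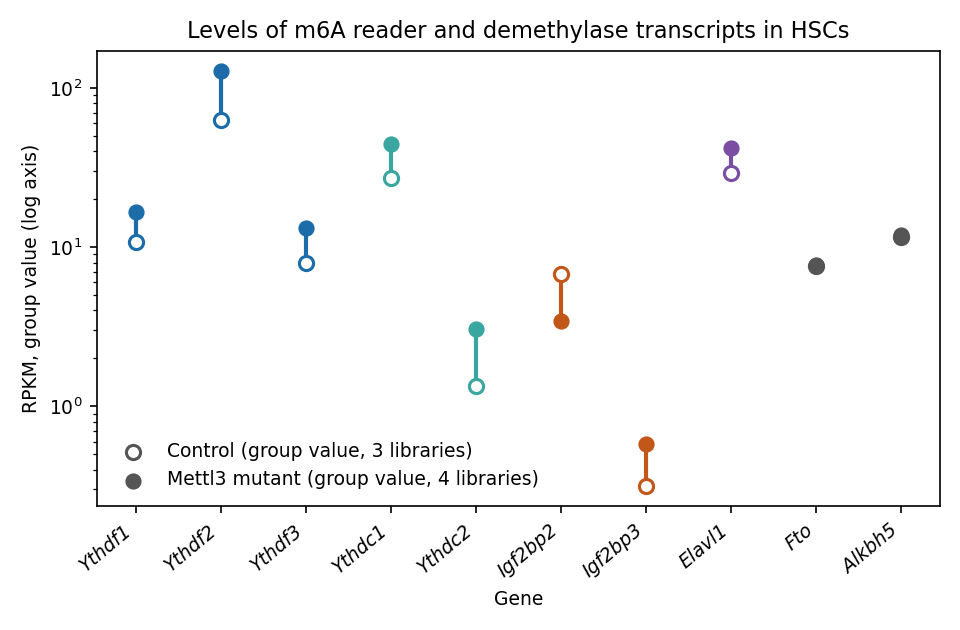
Level of each member in RPKM (log axis), with an open circle for the control value and a filled circle for the mutant value, joined by a line. Ythdf2 stands highest in both groups (63.0 and 127 RPKM), Igf2bp2 is the only member with the mutant circle below the control circle, and the circles of Fto and Alkbh5 lie on each other.

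The order of the members by level was partly the same in both groups. In controls it ran from Ythdf2 through Elavl1, Ythdc1, Alkbh5, Ythdf1, Ythdf3, Fto, Igf2bp2 and Ythdc2 to Igf2bp3. In mutants Ythdc1 stood above Elavl1, and Ythdf1 and Ythdf3 stood above Alkbh5, while the other 5 members kept their place. Neighbours such as Elavl1 and Ythdc1 were close, with Elavl1 at 1.07 times Ythdc1 in controls and 0.940 times in mutants, and without library values the order of such neighbours has no error.

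Ythdf2 (NCBI Gene 213541, chromosome 4, 132184916 to 132212256 on GRCm38.p6) was at 63.0 RPKM in control HSCs and at 127 RPKM in mutant HSCs. The ratio was 2.02, with a counting interval from 1.99 to 2.05 on an estimated 6271 reads per control library and 15061 per mutant library. On the pseudocount scale the log2 ratio was 1.00, higher than in 96.4% of genes with reads and in 96.7% of those reaching 10 RPKM. It lay just past the 2-fold size, and it came to 0.98 when mutant values were divided by the median ratio of genes. The mutant value exceeded the control value by 64.2 RPKM, more than the whole control level of any other member. Ythdf2 was the most abundant member, above 86.1% of genes with reads in controls and above 93.3% in mutants.

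The other YTHDF readers, which bind m6A through the same kind of domain, were higher too, by smaller ratios. Ythdf1 (NCBI Gene 228994, chromosome 2, 180904377 to 180920936) was at 10.7 RPKM in control HSCs and at 16.6 RPKM in mutant HSCs, a ratio of 1.55 (counting interval 1.48 to 1.62). Its log2 ratio of 0.59 was just past the 1.5-fold size, and the same rescaling took it to 0.56. Ythdf3 (NCBI Gene 229096, chromosome 3, 16183148 to 16217037) was at 7.90 and 13.2 RPKM, a ratio of 1.67 (1.60 to 1.75). The counting intervals of Ythdf1 and Ythdf3 overlapped each other and did not reach that of Ythdf2. Spread between animals is not in these intervals, so a difference between the 3 ratios was not tested. Summed over the 3 genes, YTHDF transcripts came to 81.6 RPKM in the control column and 157 RPKM in the mutant column. Ythdf2 made up 77.2% of that sum in controls and 81.0% in mutants, Ythdf1 13.1% and 10.6%, and Ythdf3 9.68% and 8.42%. Most of the YTHDF transcripts were thus Ythdf2 in both groups, and the shares moved by a few points only.

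Ythdc1 (NCBI Gene 231386, chromosome 5, 86803980 to 86836659), the nuclear reader that takes part in splicing and export, was at 27.3 RPKM in control HSCs and at 44.4 RPKM in mutant HSCs. The ratio of 1.63 (counting interval 1.58 to 1.67) was close to those of Ythdf1 and Ythdf3. Ythdc2 (NCBI Gene 240255, chromosome 18, 44827730 to 44889720), the helicase, was low in both groups, with a control value of 1.34 RPKM and a mutant value of 3.06 RPKM. When the deposited values were divided directly, Ythdc2 was the member farthest apart, at 2.28 (2.09 to 2.48), and 25.1% of genes with reads were at least 2-fold apart by that ratio. On the pseudocount scale its log2 ratio was 0.79, below that of Ythdf2. About 233 reads per control library and 633 per mutant library stood behind these values. Ythdc1 was 20.3 times as abundant as Ythdc2 in controls and 14.5 times in mutants.

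Over all 5 YTH genes the summed level was 110 RPKM in the control column and 204 RPKM in the mutant column, a ratio of 1.85. The sum was 2.21 times the level of Mettl3 in controls and 21.3 times in mutants, a difference made mostly by the lower Mettl3.

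**Figure D2:**
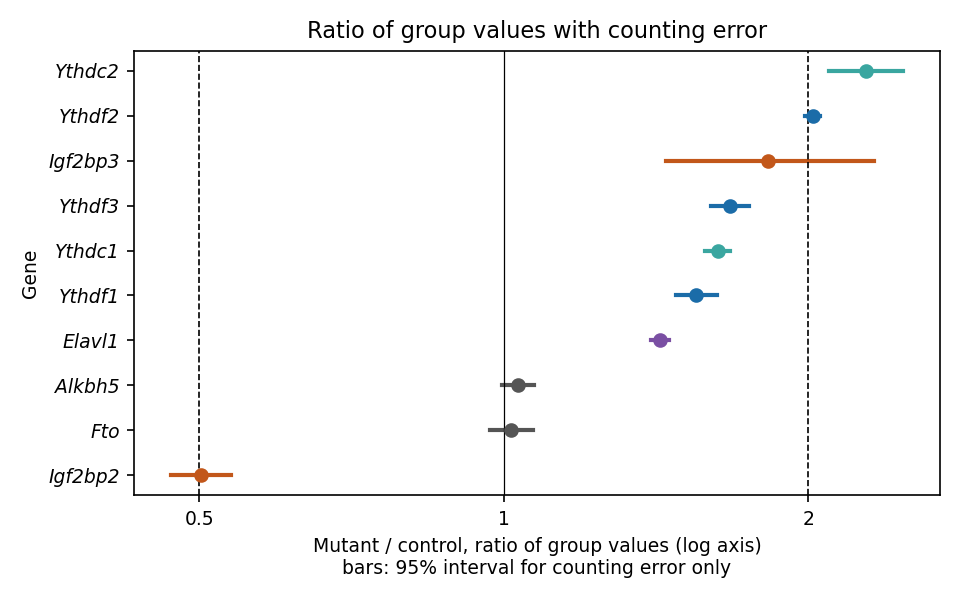
Ratio of the mutant to the control value for each member (points, log axis), with bars for the 95% interval of counting error only and dashed lines at 2-fold. Ythdc2 (2.28) and Ythdf2 (2.02) stand at the top, Igf2bp3 has the widest bar, the bars of Fto and Alkbh5 include 1, and Igf2bp2 (0.502) stands alone on the lower side. Spread between animals is not in the bars.

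Igf2bp2 (NCBI Gene 319765, chromosome 16, 22059009 to 22163299), a reader that stabilises bound mRNA, went the other way. It was at 6.81 RPKM in control HSCs and at 3.42 RPKM in mutant HSCs, 49.8% lower, with a ratio of 0.502 (counting interval 0.469 to 0.537) on about 640 and 382 reads per library. Its log2 ratio on the pseudocount scale was -0.82, and 5.38% of genes with reads were lower still. Igf2bp3 (NCBI Gene 140488, chromosome 6, 49085218 to 49215469), its paralogue of fetal tissues, was at 0.317 RPKM in control HSCs and at 0.579 RPKM in mutant HSCs. The ratio of 1.83 had an interval from 1.45 to 2.32 on about 32.2 and 71.1 reads per library, and the log2 ratio on the pseudocount scale was 0.26. Both Igf2bp3 values were small beside those of Malsu1 on the opposite strand. Igf2bp1, the third paralogue, was at the offset in both groups, so no reads were seen. Igf2bp2 was thus the main Igf2bp transcript in both groups, at 21.5 times Igf2bp3 in controls and 5.91 times in mutants.

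Elavl1 (NCBI Gene 15568, chromosome 8, 4284781 to 4325140) was at 29.2 RPKM in control HSCs and at 41.7 RPKM in mutant HSCs, a ratio of 1.43 (counting interval 1.40 to 1.46). Its log2 ratio of 0.50 was under the 1.5-fold size and higher than in 84.0% of genes with reads. Of the other ELAV family genes, which are known from neurons, Elavl2 and Elavl3 were at the offset in both groups and Elavl4 was at 1.13 and 1.51 RPKM.

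The demethylases differed little between the groups. Fto (NCBI Gene 26383, chromosome 8, 91313367 to 91668433) was at 7.59 RPKM in control HSCs and at 7.72 RPKM in mutant HSCs, a ratio of 1.02 (counting interval 0.968 to 1.07). Alkbh5 (NCBI Gene 268420, chromosome 11, 60537683 to 60558512) was at 11.6 and 11.9 RPKM, a ratio of 1.03 (0.995 to 1.07). Their log2 ratios of 0.02 and 0.04 lay near the median of all genes with reads, and that of Fto turned from 0.02 to -0.00035 after mutant values had been divided by the median ratio of genes that reached 1 RPKM in both groups. Together the demethylases came to 19.2 RPKM in the control column and 19.7 RPKM in the mutant column. The summed YTH level was 5.75 times the summed demethylase level in controls and 10.4 times in mutants. Mettl3 was at 4.30 times the level of Alkbh5 in controls and at 0.803 times in mutants.

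**Figure D3:**
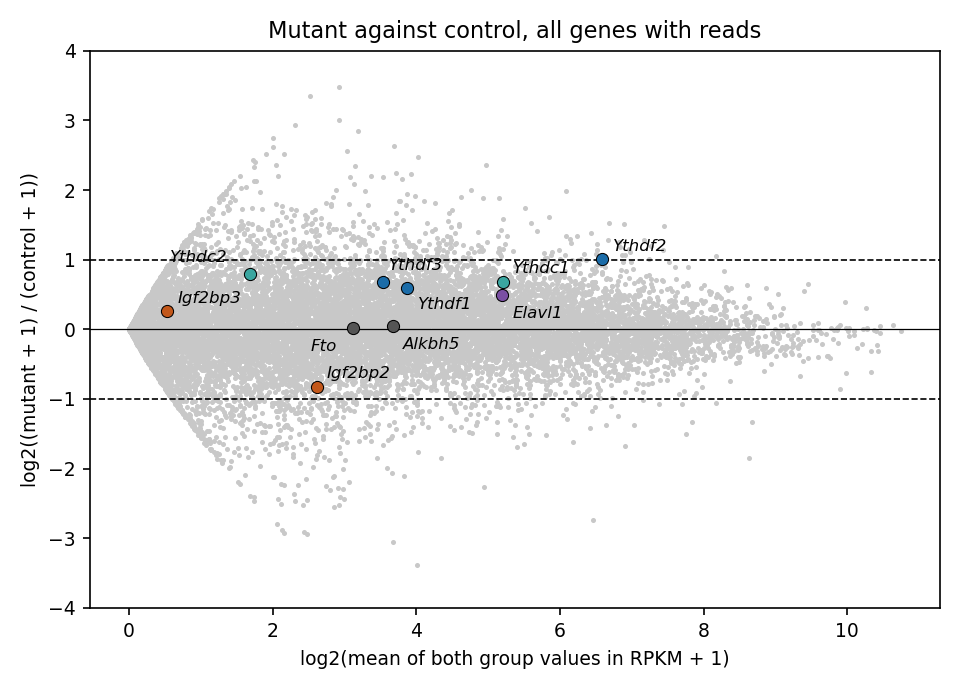
log2 ratio of mutant to control with a pseudocount of 1 RPKM (vertical axis) against level (horizontal axis) for all 14539 genes with reads in grey, with the members in colour and dashed lines at 2-fold. Ythdf2 lies on the upper line, Fto and Alkbh5 lie near 0, and 1 gene lies beyond the vertical axis at 4.

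Other genes of the m6A pathway were read from related lists. In the writer complex, 5 of 9 genes were higher and 4 lower, with a median log2 ratio of 0.07. Besides Mettl3, those at least 1.5-fold apart were Rbm15, an adaptor that brings the complex to RNA (8.84 and 16.7 RPKM), and Wtap, a scaffold subunit (18.5 and 29.7 RPKM). Mettl14, the partner of Mettl3 in the catalytic pair, was at 10.3 and 12.0 RPKM. Of 6 further proteins described as m6A readers, 5 had reads, with a median of 0.03. Among them Rbmx, a nuclear RNA-binding protein gene, was 1.5-fold apart or more, at 27.8 and 17.3 RPKM.

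Among 7 further AlkB homologues, 4 were higher and 3 lower, with a median of 0.08. Alkbh1, which acts on tRNA and mitochondrial RNA, was the single one past 1.5-fold, at 32.7 and 54.9 RPKM. Of 14 genes with reads whose proteins work with YTH readers, such as the CCR4-NOT subunits, 7 were higher and 7 lower, with a median of 0.05. Of these Cnot6, a deadenylase subunit, was at 17.5 and 11.3 RPKM, and Cnot1, the scaffold, at 8.55 and 8.40 RPKM. In the list of Lin28, let-7 targets and Igf2bp2 partners, 5 of 6 genes had reads, 3 higher and 2 lower, with a median of 0.03. Arid3a, a let-7 target, was at 1.08 and 0.203 RPKM. Hmga2, another target, was at 1.47 and 1.95 RPKM. Lin28b had 0.122 RPKM in control cells and no reads in mutant cells. The median of the reader and demethylase genes, 0.54, was the highest of these lists, and no test of that difference was made.

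**Figure D4:**
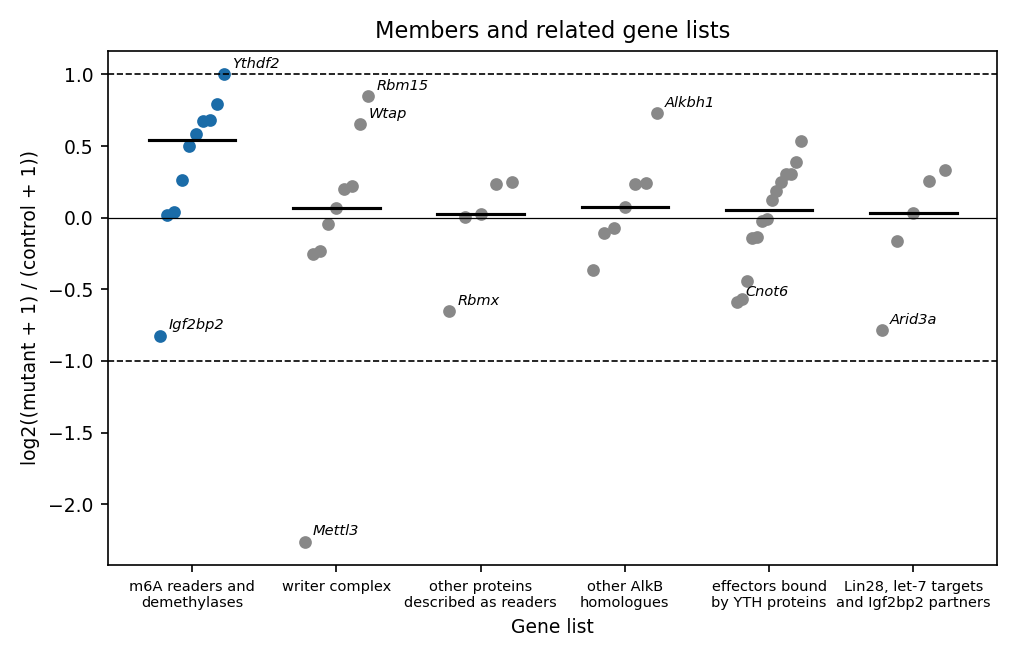
log2 ratio of mutant to control with a pseudocount of 1 RPKM for every gene with reads in the members and in 5 related lists, with a black bar at each median. The members' median is 0.54 and those of the other lists lie between 0.03 and 0.08. Genes of the related lists past 1.5-fold are named.

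The genes nearest to Ythdf2, by distance over the log2 control and mutant levels (2 values a gene), were Irgm1, an interferon-inducible GTPase gene (64.8 and 124 RPKM), Mettl9, a histidine methyltransferase gene (62.1 and 118 RPKM), and Cenpa, the centromeric histone gene (68.2 and 128 RPKM). Nearest to Ythdc2 were Papd5, a noncanonical poly(A) polymerase gene (1.38 and 2.98 RPKM), Rabl3, a small GTPase gene (1.29 and 3.00 RPKM), and Dcp1a, a decapping factor gene (1.29 and 3.13 RPKM).

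Because several members were higher together and Igf2bp2 was lower, their promoters were set side by side. RefSeq (GRCm38.p6) gave a start for 8 of the 10 members. The 250 bases before the start are shown for Ythdf2 (chr4:132212257-132212506, minus strand) and Igf2bp2 (chr16:22163300-22163549, minus strand), the members at the upper and the lower end on the pseudocount scale. The capitals mark GGGCGG on either strand, the GC box.
Ythdf2: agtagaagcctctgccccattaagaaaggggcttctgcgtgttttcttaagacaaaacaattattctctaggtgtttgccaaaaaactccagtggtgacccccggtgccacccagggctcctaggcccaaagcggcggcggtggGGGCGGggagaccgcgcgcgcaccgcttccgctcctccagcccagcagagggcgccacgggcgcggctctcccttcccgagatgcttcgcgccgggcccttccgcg
Igf2bp2: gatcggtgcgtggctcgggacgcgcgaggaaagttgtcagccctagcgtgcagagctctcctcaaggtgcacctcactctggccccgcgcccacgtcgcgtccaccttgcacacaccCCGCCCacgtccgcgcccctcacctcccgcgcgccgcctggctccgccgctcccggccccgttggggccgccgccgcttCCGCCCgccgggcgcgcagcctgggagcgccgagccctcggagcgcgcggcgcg

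Both windows were rich in G and C, at 64.0% in Ythdf2 and 77.2% in Igf2bp2, beside a median of 52.4% over 32851 promoters, and all 8 members' windows were above that median, the lowest being Alkbh5 at 54.0%. GGGCGG was in 5 of the 8 windows, with 4 matches in Ythdc1, 3 in Ythdf1, 2 in Alkbh5, 2 in Igf2bp2 and 1 in Ythdf2, and in 32.7% of all promoters. The letters GAAANNGAA, the core of the interferon response element, were in 7.13% of all promoters and in 1 of the 8 members' windows, that of Igf2bp3. All motifs were searched on both strands, and none holds another. The E-box CACGTG was in those of Ythdf1 and Igf2bp3 and in 6.02% of all promoters. The motif CCAAT was in the windows of Ythdf1, Igf2bp3, Elavl1 and Alkbh5 and in 33.8% of all promoters. The AP-1 motif TGANTCA and the CRE motif TGACGTCA were in none of the 8 windows, and in 6.75% and 1.55% of all promoters. A match is a property of the letters, and binding was not measured here.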

How the data were processed

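Smart-seq2 libraries of 150 sorted HSCs each, 3 control and 4 mutant, had been sequenced as paired-end reads of 100 bases, per the labels' protocols. The authors deposited RPKM with 1 column per group, per the file headers; how libraries were combined was not given in the sources used here. The submitters' processing notes name the build mm10, Picard and edgeR, with no role. The members and gene lists were chosen with earlier results of these data known.

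Genes without reads were those at the most frequent mutant/control ratio (0.841; relative tolerance 1e-07 plus rounding of the table), 8499 genes. Their implied lengths were within 10% of the longest protein-coding GENCODE M21 transcript in 53.7% of 6279 genes, so estimated reads are approximate. Ratios were computed with a pseudocount of 1 RPKM; the procedure was tested on simulated data. Of the identifiers, 22959 were in RefSeq (GRCm38.p6), and older symbols were matched through them; Ly6g was not analysed. Named genes were the members, Mettl3, list genes at least 1.5-fold apart (at most 4 a list, otherwise the farthest 1) and the 3 genes nearest to each member 2-fold apart with that pseudocount (Ythdf2) or by the direct ratio (also Ythdc2); Mettl14, Cnot1, Hmga2, Lin28b, Igf2bp1, Elavl2, Elavl3, Malsu1 and the cell markers were named after their values were seen. Python 3.11.15, pandas 2.3.3 and scipy 1.17.1 were used.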

Additional observations from a re-analysis of the deposited data

How the results depend on the processing

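Each member's log2 ratio was recomputed with a pseudocount of 0.1 RPKM, with none, with the mutant column divided by the median ratio, with columns scaled to equal sums and with the offset subtracted. Of 50 such values, 46 stayed within 1.5 times of the reported one. Igf2bp3 moved from 0.26 to 0.70 with 0.1 RPKM and 0.87 with none, because a low gene weighs more there, and Alkbh5 from 0.04 to 0.02 with the median ratio, which also turned Fto to -0.00035. Members at least 2-fold apart numbered 2 with a pseudocount of 0.1 RPKM or none (Ythdf2 and Ythdc2) and 0 with the median ratio, which took Ythdf2 to 0.98. Members at least 1.5-fold apart numbered 5 with the median ratio, 7 with the smaller pseudocount or none, and 4 among members that reached 10 RPKM. Igf2bp2 stayed between -0.99 and -0.81 and Ythdf2 between 0.98 and 1.01. No paired analysis was possible because the table holds group values without replicate numbers, and for the same reason no library could be left out. Counting error was largest for Igf2bp3, with about 32.2 reads per control library, and spread between animals is not in any of these values.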
